A study of Rattus norvegicus with 15 samples.

Results

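The mitochondrial carrier family, Slc25, was followed in heart RNA of rats with severe acute pancreatitis (SAP). Its members were taken as all probe sets whose platform gene symbol is Slc25a followed by a number. These were 38 of 23188 probe sets on the array, each for a different gene, and no measured value entered this rule. The family itself was chosen with earlier results of these data known. A RefSeq gene table of the rat lists 49 protein-coding genes with such symbols, and 11 of them had no named probe set here, among them the aspartate and glutamate carriers Slc25a12 and Slc25a13. Hearts were taken from male Sprague-Dawley rats of 8 to 10 weeks, 12 h and 24 h after SAP was induced with 5% sodium taurocholate, a bile salt, infused through the bile and pancreatic ducts. The third group had sham surgery, and each group held 5 arrays. No allele or transgene is involved. The series title and an extraction note speak of ischemia/reperfusion, whereas every sample's own labels give SAP or sham surgery, and the sample labels were followed. The sources used here do not state at what hour hearts were taken, nor how long after sham surgery, so effects of daytime and of SAP cannot be told apart.

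Slc25 proteins sit mostly in the inner mitochondrial membrane, which is closed to charged molecules. Each one passes a small set of substrates between cytosol and matrix, often in exchange: ADP for ATP, phosphate, carboxylates, amino acids, acylcarnitines, cofactors or iron. The beating heart makes nearly all its ATP in mitochondria, mainly from fatty acids, and so depends on ADP/ATP exchange, phosphate import and the carnitine carrier.

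The tissue label was checked against 7 measured cardiomyocyte markers, whose mean level lay between 18.02 and 18.32 log2 in the SAP 12 h arrays, 18.09 and 18.25 at 24 h and 17.91 and 18.33 in sham arrays, with no marker called in any comparison. Atrial transcripts differed between arrays: the light chain gene Myl4 and the calcium pump regulator gene Sln both exceeded 12 log2 in 4 arrays, SAP 12 h replicates 3 and 4 and sham replicates 2 and 3, called atrial-rich here. The mean of 6 atrial markers ran from 6.81 to 17 log2 at 12 h, from 6.79 to 7.66 at 24 h and from 8.2 to 15.08 in sham hearts. Results of Slc25a5, Slc25a25, Slc25a20, Slc25a45, Slc25a15, Slc25a33 and Slc25a35 are therefore also given without those 4 arrays. That fit kept 3 arrays each of sham and SAP 12 h and 5 of SAP 24 h. Calls over all probe sets went from 1140 to 598 at 12 h and from 782 to 500 at 24 h. Whether a call lost in it reflects atrial content or fewer arrays was not tested. Those of the other carriers and of partner genes are given without this check. Of 7 neutrophil markers 4 were called higher at 12 h (S100a8, S100a9, Lcn2 and Mmp8), with list means of 5.92 to 6.95 log2 at 12 h, 5.21 to 6.84 at 24 h and 4.83 to 5.23 in sham hearts. Of 8 macrophage markers 3 were called higher at 12 h, with list means of 8.44 to 9.67 at 12 h, 8.02 to 8.35 at 24 h and 8.08 to 8.34 in sham hearts. At 24 h 1 neutrophil marker (Mmp8) and 0 macrophage markers were called. Of 6 endothelial markers Vwf was called higher at 12 h, where 4 of the list had positive and 2 negative values. Of 4 brown adipocyte markers Cidea was called higher at 12 h. Ucp1, Elovl3 and Dio2 of that list had 0.02 ± 0.14, -0.20 ± 0.15 and -0.01 ± 0.15 log2 and did not follow it. Of 6 atrial markers Myl7 was called lower at 24 h, and of 6 fibroblast markers Col1a2 was called lower at 24 h. The fibroblast list means were 11.29 to 13.27 at 12 h, 11.79 to 11.98 at 24 h and 12.18 to 13.6 in sham hearts. Of 7 erythroid, 4 adipocyte and 7 skeletal muscle markers measured, 0 were called against sham by limma. At an unadjusted p under 0.05 there were 1, 0 and 2 at 12 h, and 0, 1 and 2 at 24 h. The adipocyte list means were 4.65 to 6.61 at 12 h, 4.44 to 4.6 at 24 h and 4.61 to 6.65 in sham hearts. At 24 h 3 of the 4 adipocyte markers had negative values and 1 a positive one, with Adipoq at -3.16 ± 1.09 log2 (adjusted p = 0.126). The part of these markers in the results below was not tested. In RNA of whole hearts, fewer cells of a type and less RNA per cell cannot be told apart.

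Of the 38 carriers, 4 differed from sham hearts by limma. At 12 h these were 3 (7.89%, against 4.92% of all probe sets) and at 24 h 4 (10.5%, against 3.37%). Slc25a5, Slc25a45 and Slc25a25 fell at 12 h and again at 24 h, and Slc25a20 rose at 24 h. The promoter windows of 3 of these genes are shown here because they carry letters of known promoter elements. They are from RefSeq, build GRCr8, and run from 250 bases before the gene start to 50 bases after it, on the gene's own strand. Such windows were found for 34 of the 38 members. Capitals mark every match, on either strand, to 7 motifs: TGACGTCA (cAMP response element), GGGCGG (GC box), CCAAT (bound by NF-Y), AGGTCA (a core bound by nuclear receptors), CACGTG (E-box), TATAAA and the NRF1 core motif. None of the matches in these 3 windows overlapped another.
Slc25a5, chrX:120897366-120897665, plus strand: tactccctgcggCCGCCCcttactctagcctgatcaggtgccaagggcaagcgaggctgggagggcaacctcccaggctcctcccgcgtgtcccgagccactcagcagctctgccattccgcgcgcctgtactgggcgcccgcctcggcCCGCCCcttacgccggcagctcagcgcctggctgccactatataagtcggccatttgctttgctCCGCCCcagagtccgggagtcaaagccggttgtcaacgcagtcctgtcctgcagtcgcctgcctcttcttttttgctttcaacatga
Slc25a25, chr3:36116532-36116831, minus strand: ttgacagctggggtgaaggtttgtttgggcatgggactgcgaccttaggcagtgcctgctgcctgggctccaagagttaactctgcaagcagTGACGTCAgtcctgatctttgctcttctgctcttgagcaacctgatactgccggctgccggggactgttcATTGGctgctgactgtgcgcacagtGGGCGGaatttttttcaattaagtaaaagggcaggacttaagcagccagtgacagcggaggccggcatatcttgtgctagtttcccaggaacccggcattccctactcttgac
Slc25a20, chr8:118243323-118243622, plus strand: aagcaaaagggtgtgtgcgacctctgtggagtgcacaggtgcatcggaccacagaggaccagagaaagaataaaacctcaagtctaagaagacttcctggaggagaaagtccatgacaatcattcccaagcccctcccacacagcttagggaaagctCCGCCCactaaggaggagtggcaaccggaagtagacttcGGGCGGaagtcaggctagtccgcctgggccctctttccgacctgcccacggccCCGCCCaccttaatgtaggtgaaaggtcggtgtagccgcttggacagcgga
The window of Slc25a5 holds 3 GC boxes, as does that of Slc25a20. The window of Slc25a25 holds 1 cAMP response element, whose first base lies 158 bases before the gene start, with 1 GC box and 1 CCAAT. No letters of these motifs are in the window of Slc25a45. Of 33469 promoter windows of the same length in the table, 33.1% hold a GC box, 37.5% CCAAT and 1.83% the cAMP response element. Among the members' windows 24 of 34 hold a GC box, 19 hold CCAAT, and the cAMP response element is in those of Slc25a25 and Slc25a33. A match is a description of letters and no evidence of a site in use.

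The first question was which carriers differed in hearts 12 h after SAP was induced. Values are log2 expression per array, a gene was called when limma's test, adjusted by Benjamini-Hochberg over all 23188 probe sets, gave a p under 0.05, and errors of fold changes are standard errors (SE). At 12 h 3 of 38 carriers (7.89%) were called, against 4.92% of all probe sets. All 3 were lower, where 2.57% of all probe sets were called lower, and 0 were higher, where 2.35% of all were. At an unadjusted p under 0.05 there were 8 carriers (21.1%), against 16% of all probe sets. The median log2 fold change was -0.11 over the 38 carriers and 0.01 over all probe sets, and 25 of the 38 (65.8%) had a negative value, against 47.9% of all probe sets. At 24 h 4 carriers (10.5%) were called, against 3.37% of all probe sets. Of these 3 were lower, where 2.14% of all probe sets were, and 1 was higher, where 1.23% of all were. At an unadjusted p under 0.05 there were 12 carriers (31.6%), against 16.4% of all. Their median log2 fold change was then -0.03, against 0.02 over all. The SAP 12 h and 24 h comparisons share the sham arrays, so a gene that was low at both times is not 2 independent results.

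**Figure D1:**
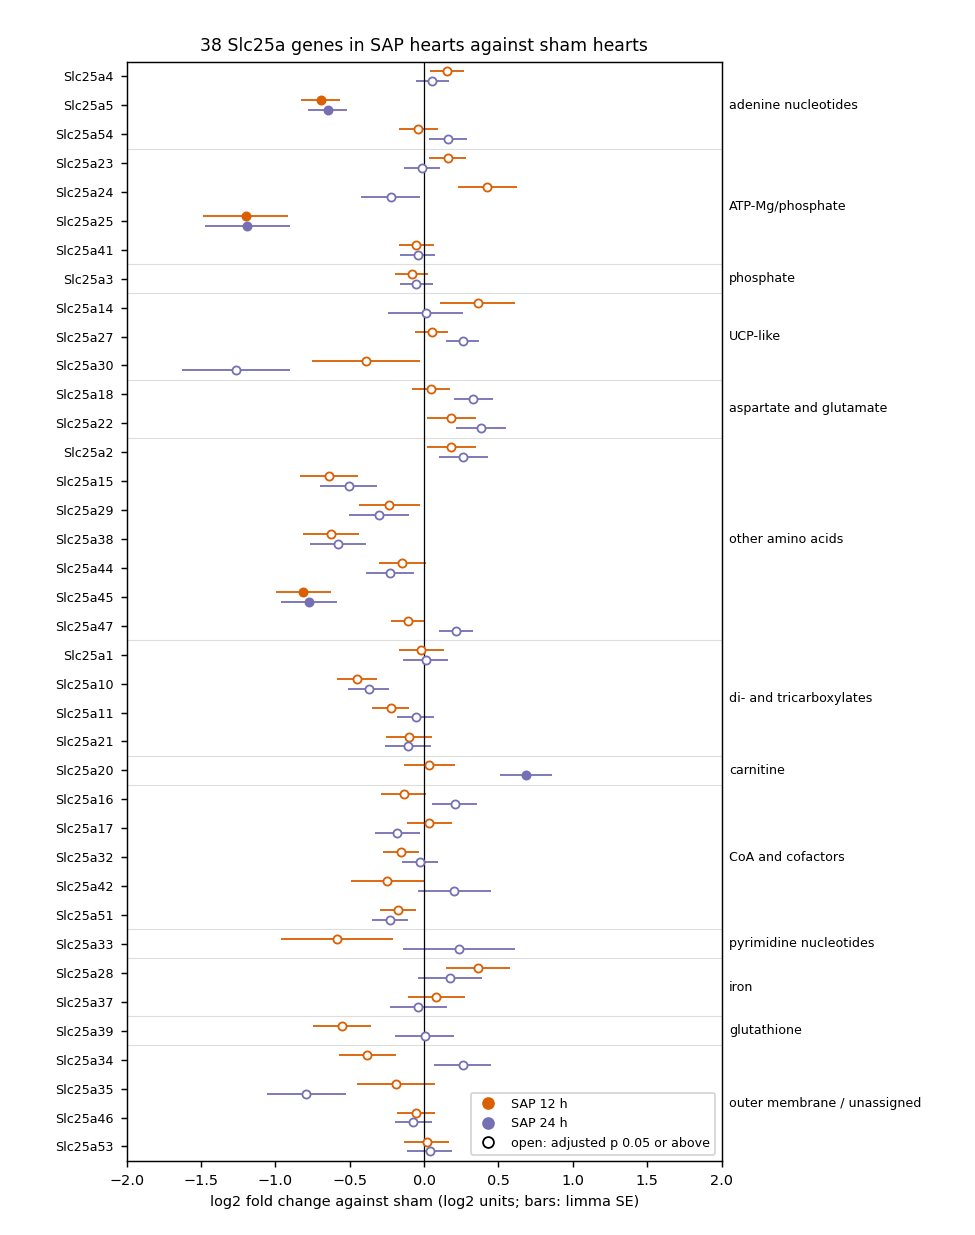
Log2 fold change of 38 Slc25a genes in SAP 12 h hearts (orange) and SAP 24 h hearts (violet) against sham hearts, grouped by role, with limma's standard error as bars and filled points for adjusted p under 0.05. Slc25a5, Slc25a25 and Slc25a45 lie left of 0 with filled points at both times, Slc25a20 lies right of 0 with a filled point at 24 h, and the other 34 genes have open points.

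Among the adenine nucleotide carriers, Slc25a5 encodes ANT2, the ADP/ATP exchanger found in most tissues, and Slc25a4 encodes ANT1, the exchanger of heart and skeletal muscle. Slc25a5 measured 15.87, 16.42, 15.93, 16.3 and 15.95 log2 in the 5 SAP 12 h arrays, 16.26, 15.88, 16.38, 16.03 and 16.16 in the 24 h arrays, and 16.94, 16.83, 16.64, 16.69 and 16.85 in the sham arrays. Every SAP array at either time lay below every sham array. The gene, whose promoter window holds 3 GC boxes, was the only carrier whose arrays did not overlap at 12 h (1 of 38, or 2.63%, against 4.78% of all probe sets in either direction, 2.44% lower and 2.34% higher). It was 1.62-fold lower at 12 h (log2 fold change -0.70 ± 0.13 SE, n = 5 arrays each, limma adjusted p = 0.00392) and 1.57-fold lower at 24 h (-0.65 ± 0.13, adjusted p = 0.0101). Without the 4 atrial-rich arrays the values were -0.75 (adjusted p = 0.0393) and -0.69 (0.0398).

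Slc25a4 measured 19.7 to 19.83 log2 in the 12 h arrays, 19.46 to 19.73 at 24 h and 19.25 to 19.73 in sham arrays. These values lie at the top of the table, whose highest entry is 19.83, and the files do not say whether probes were saturated. It was not called, with log2 fold changes of 0.15 ± 0.11 at 12 h (adjusted p = 0.576) and 0.05 ± 0.11 at 24 h (0.869). The difference Slc25a5 minus Slc25a4 within an array averaged -3.67 ± 0.28 log2 (SD, n = 5) at 12 h and -3.52 ± 0.11 at 24 h, against -2.82 ± 0.15 in sham hearts. This difference is given as a description with no test, since a probe set at the top of the scale may not show a change and the pair was picked after the values were seen. RefSeq lists 9 pseudogenes of Slc25a5 and 1 of Slc25a4 in the rat, and whether the probes tell them from the genes was not tested. Slc25a54, placed in this group here with no role stated, had levels of 3.52 to 4.32 log2 over all arrays and was not called.

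**Figure D2:**
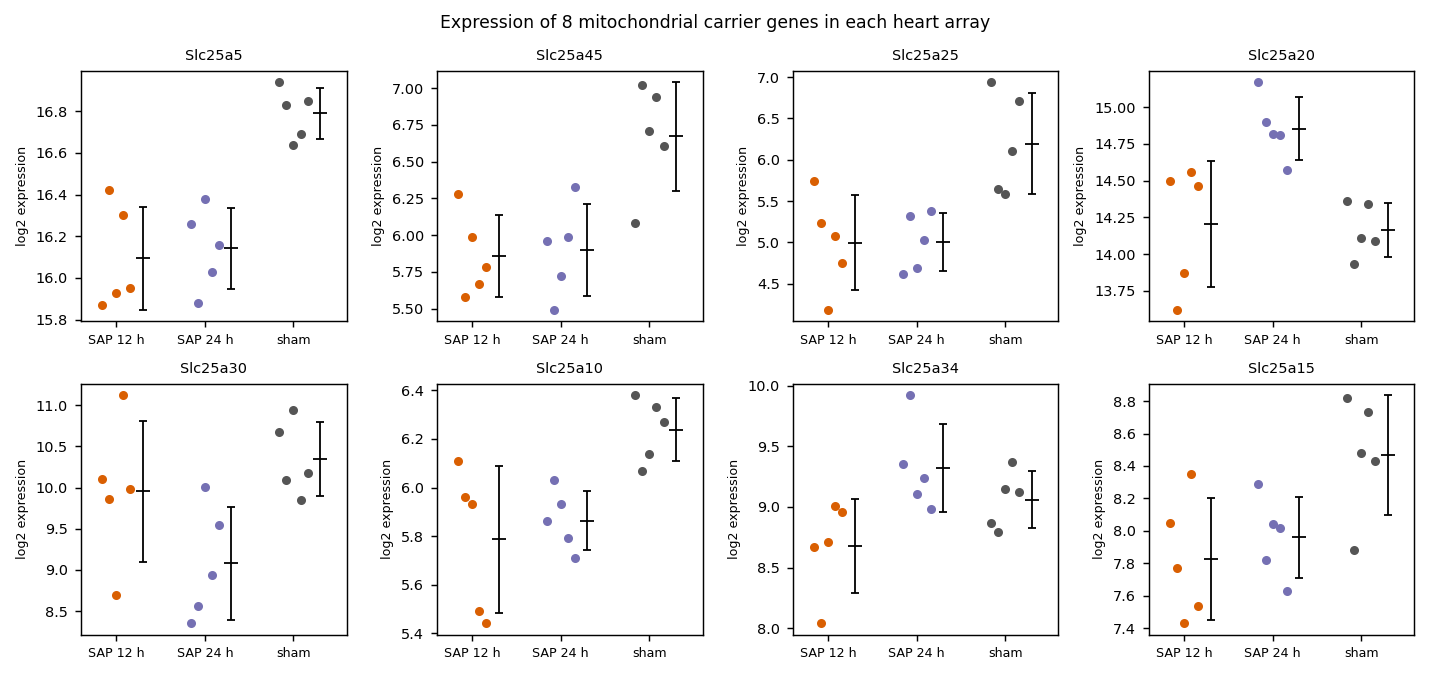
Log2 expression of the 8 carriers described in full, 1 point per array, with the mean and SD of 5 arrays beside each group (SAP 12 h, SAP 24 h, sham). For Slc25a5 all 10 SAP points lie below the sham points, and for Slc25a20 all 5 SAP 24 h points lie above the sham points.

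The ATP-Mg/phosphate carriers shift the total adenine nucleotide content of the matrix, and most of them are switched by cytosolic calcium. Slc25a25 (SCaMC-2) belongs to them and measured 5.74, 5.23, 4.18, 5.08 and 4.75 log2 at 12 h, 4.62, 5.32, 4.69, 5.03 and 5.38 at 24 h, and 6.94, 5.65, 5.58, 6.1 and 6.71 in sham hearts. The 24 h arrays all lay below the sham arrays, while at 12 h replicate 1 lay above the 2 lowest sham arrays. Slc25a25, in whose promoter window the cAMP response element was found, had the largest fall of the called carriers, 2.3-fold at 12 h (log2 fold change -1.20 ± 0.28 SE, adjusted p = 0.0175) and 2.28-fold at 24 h (-1.19 ± 0.28, adjusted p = 0.0266). The 12 h call was lost without sham replicate 1 (-1.01, adjusted p = 0.0531) or sham replicate 5 (-1.07, adjusted p = 0.0570), the 2 highest sham arrays. The 24 h call was lost without either of these or SAP 24 h replicate 1, 3 or 4 (highest adjusted p = 0.0810 without sham replicate 5). Array medians lay between 5.9 and 5.98 log2 and the SAP means of Slc25a25, 5.00 and 5.01, lie below them. Without the 4 atrial-rich arrays Slc25a25 had log2 fold changes of -1.34 at 12 h (adjusted p = 0.0190) and -1.58 at 24 h (adjusted p = 0.00493).

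The other carriers of this kind were not called at either time. Slc25a24 (SCaMC-1) had means of 7.68 ± 0.35 log2 at 12 h, 7.03 ± 0.37 at 24 h and 7.25 ± 0.32 in sham hearts (SD, n = 5 each). Slc25a23 (SCaMC-3) had 9.64 log2 at 12 h, 9.46 at 24 h and 9.48 in sham hearts. Slc25a41 lay between 2.95 and 3.43 log2 on all arrays, near the bottom of the table. Within an array, Slc25a25 moved by -1.63 log2 relative to Slc25a24 at 12 h and by -0.96 at 24 h. Relative to Slc25a23 it moved by -1.36 and -1.17 log2. These differences are given as a description with no test. The pairs were picked after the values were seen, and Slc25a25 was already called in the same arrays. Slc25a3, the phosphate carrier that supplies ATP synthase, had log2 fold changes of -0.08 ± 0.11 at 12 h and -0.05 ± 0.11 at 24 h and was not called.

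**Figure D3:**
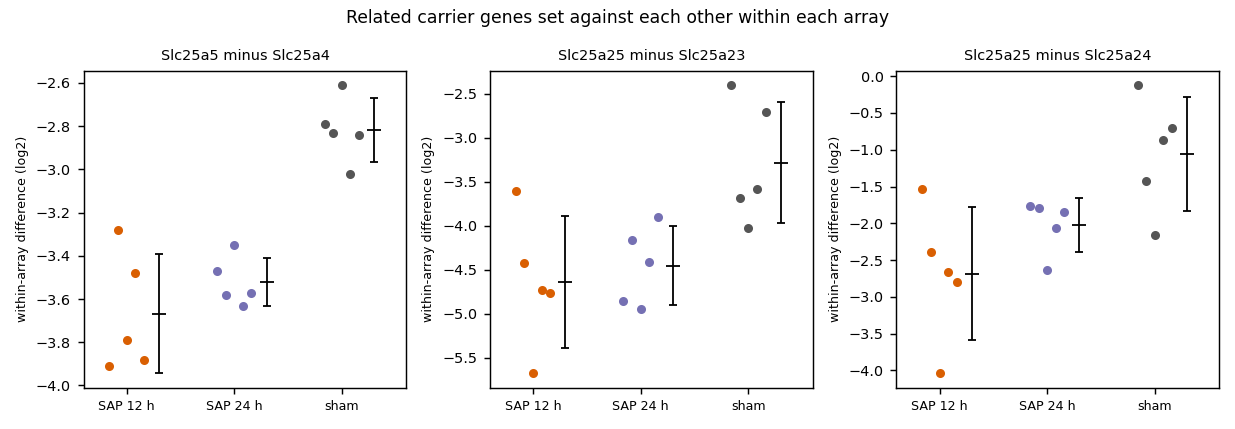
Within-array differences in log2 expression for 3 pairs of related carriers, 1 point per array, with the mean and SD of 5 arrays beside each group (SAP 12 h, SAP 24 h, sham). For Slc25a5 minus Slc25a4 the SAP arrays, at most -3.28, do not reach the sham arrays, at least -3.02, with Slc25a4 near the top of the scale. The level of a difference between 2 probe sets has no meaning of its own, only its change between groups.

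Slc25a20 encodes the carnitine/acylcarnitine carrier, which brings long-chain fatty acids, bound to carnitine, into the matrix for oxidation. It measured 14.5, 13.62, 13.87, 14.56 and 14.46 log2 at 12 h, 15.17, 14.9, 14.82, 14.81 and 14.57 at 24 h, and 14.36, 13.93, 14.11, 14.34 and 14.09 in sham hearts. The 24 h arrays lay above all arrays of both other groups, the 12 h arrays spanned the sham range on both sides, and the gap from the lowest 24 h to the highest 12 h array was narrow. Slc25a20, with 3 GC boxes in its promoter window, was 1.61-fold higher at 24 h than in sham hearts (log2 fold change 0.69 ± 0.17 SE, adjusted p = 0.0367) and differed by 0.04 ± 0.17 at 12 h (adjusted p = 0.961). The difference of 24 h from 12 h was 0.65 ± 0.17 and missed the threshold (adjusted p = 0.0964). The call at 24 h was lost in 8 of the 15 fits without 1 array, namely without sham replicate 2, 3, 4 or 5 or SAP 24 h replicate 1, 2, 3 or 4 (0.61 to 0.73 log2 in these). It was also lost with the atrial marker mean as a covariate (0.60, adjusted p = 0.141) and without the 4 atrial-rich arrays (0.59, adjusted p = 0.154).

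The enzymes that work with this carrier were looked at as a list of 6, of which 1 was called higher at 24 h and 0 lower, with a median log2 fold change of 0.32. Cpt1b, the muscle carnitine palmitoyltransferase of the outer membrane, rose by 0.53 ± 0.12 log2 (adjusted p = 0.0219). Cpt2, its partner on the inner membrane, had 0.55 ± 0.16 (adjusted p = 0.0658), and the carnitine acetyltransferase gene Crat had 0.33 ± 0.18. Slc22a5, which takes carnitine into the cell, had -0.28 ± 0.16. The last 2 of the list, Acsl1 and Cpt1a, had 0.21 ± 0.18 and 0.30 ± 0.28. At 12 h 0 of these 6 were called by limma, and 2 had an unadjusted p under 0.05. These went opposite ways, Cpt1b with 0.31 ± 0.12 and Acsl1 with -0.42 ± 0.18.

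Slc25a45 is grouped here with the amino acid carriers, and the human protein has been reported to import methylated amino acids. It measured 6.28, 5.58, 5.99, 5.67 and 5.78 log2 at 12 h, 5.96, 5.49, 5.72, 5.99 and 6.33 at 24 h, and 6.08, 7.02, 6.71, 6.94 and 6.61 in sham hearts. Apart from sham replicate 1, the sham arrays lay above all SAP arrays. Slc25a45 was 1.76-fold lower at 12 h (log2 fold change -0.81 ± 0.19 SE, adjusted p = 0.0149) and 1.71-fold lower at 24 h (-0.77 ± 0.19, adjusted p = 0.0283). Without the 4 atrial-rich arrays neither call held (-0.66, adjusted p = 0.231, at 12 h, and -0.65, adjusted p = 0.173, at 24 h). The 24 h call was also lost without sham replicate 2, 3, 4 or 5 or SAP 24 h replicate 2 or 3, with the replicate number as a block (adjusted p = 0.0613), and with the atrial marker mean as a covariate (adjusted p = 0.0912). Its levels lie close to the array medians.

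The other 6 measured carriers of that group were not called. Slc25a15, the ornithine carrier of the urea cycle, measured 8.05, 7.77, 7.43, 8.35 and 7.54 log2 at 12 h, 8.29, 7.82, 8.04, 8.02 and 7.63 at 24 h, and 8.82, 7.88, 8.48, 8.73 and 8.43 in sham hearts. All 3 groups overlapped, with sham replicate 2 low in its group. Its log2 fold changes were -0.64 ± 0.19 at 12 h (adjusted p = 0.0664) and -0.51 ± 0.19 at 24 h (adjusted p = 0.173), and without the 4 atrial-rich arrays, sham replicate 2 among them, it was called at both times (-0.87, adjusted p = 0.0249, and -0.70, adjusted p = 0.0488). Slc25a38, which brings in glycine for haem synthesis, averaged 7.49 ± 0.42 log2 at 12 h, 7.53 ± 0.29 at 24 h and 8.12 ± 0.24 in sham hearts (SD, n = 5 each), with adjusted p of 0.0676 and 0.102. Its 24 h arrays, at most 7.86, lay just below the sham arrays, at least 7.87. The branched-chain amino acid carrier Slc25a44, the basic amino acid carrier Slc25a29, the ornithine carrier Slc25a2 and Slc25a47 had log2 fold changes between -0.30 and 0.26 at both times. The glutamate carriers Slc25a22 and Slc25a18 had 0.38 ± 0.17 and 0.33 ± 0.13 at 24 h (adjusted p = 0.250 and 0.180).

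Among the carboxylate carriers 0 of 4 were called at either time, and 1 of them had an unadjusted p under 0.05 at each. This was Slc25a10, which exchanges malate or succinate for phosphate. It measured 6.11, 5.96, 5.93, 5.49 and 5.44 log2 at 12 h, 5.86, 6.03, 5.93, 5.79 and 5.71 at 24 h, and 6.38, 6.07, 6.14, 6.33 and 6.27 in sham hearts. The 24 h arrays all lay below the sham arrays, and 1 array of the 12 h group overlapped them. Its log2 fold changes were -0.45 ± 0.13 at 12 h (adjusted p = 0.0634) and -0.37 ± 0.13 at 24 h (adjusted p = 0.147). Slc25a11, the oxoglutarate carrier of the malate-aspartate shuttle, had -0.23 ± 0.13 and -0.06 ± 0.13 with levels of 16.09 to 16.83 log2 over all arrays. The citrate carrier Slc25a1 had -0.02 and 0.01, from levels under 5 log2, and the oxodicarboxylate carrier Slc25a21 had -0.10 and -0.11.

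Of the 3 carriers related to uncoupling proteins, Slc25a30 (KMCP1) had the largest difference. It measured 10.1, 9.86, 8.7, 11.12 and 9.98 log2 at 12 h, 8.35, 8.56, 10.01, 8.94 and 9.54 at 24 h, and 10.67, 10.09, 10.94, 9.85 and 10.18 in sham hearts. Of the 24 h arrays only replicate 3 reached the sham range, and the 12 h arrays overlapped it on both sides. Its log2 fold change at 24 h, -1.27 ± 0.36 SE, had the largest size of all 38 carriers in any of the 3 comparisons but missed the threshold (adjusted p = 0.0633). It was called in 6 of 28 alternatives, namely with the lowest 50% of probe sets left out (adjusted p = 0.0455), with array weights (0.0301), with only the compared groups (0.0175), and without SAP 12 h replicate 3 (0.0266), SAP 12 h replicate 4 (0.0341) or SAP 24 h replicate 3 (-1.50, adjusted p = 0.0359). At 12 h its log2 fold change was -0.39 ± 0.36. Slc25a14 and Slc25a27, brain-rich members, had 0.36 and 0.05 at 12 h and 0.01 and 0.26 at 24 h.

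The carriers of cofactors, nucleotides, iron and glutathione were not called at either time. Slc25a33, a pyrimidine nucleotide carrier, measured 7.21, 9.63, 7.49, 6.57 and 7.34 log2 at 12 h, 8.94, 8.23, 8.23, 8.38 and 8.55 at 24 h, and 8.62, 8.36, 7.79, 8.24 and 8.16 in sham hearts. SAP 12 h replicate 2 was the highest of all 15 arrays, and the other 4 of its group were the lowest. With all arrays its log2 fold change at 12 h was -0.59 ± 0.38 (adjusted p = 0.508). Without the 4 atrial-rich arrays it was -0.28 (adjusted p = 0.878). Without SAP 12 h replicate 2 it was -1.08, and the difference of 24 h from 12 h was then 1.31. These values are given as a description with no test, since the array was picked after its Slc25a33 value was seen. That array was also the farthest from its group mean for 9 of the 38 carriers (23.7%), and for 12.9% of all probe sets. Without it 5 carriers were called lower at 12 h in place of 3, with Slc25a33 and Slc25a38 added. For both genes that call has the same limit. For Slc25a38 that array was also the farthest from its group mean, 0.62 log2 above it. The count over all probe sets in that fit is not given here.

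Slc25a39, a glutathione carrier, had -0.55 ± 0.20 log2 at 12 h (adjusted p = 0.137) and 0.00 ± 0.20 at 24 h (adjusted p = 0.996), and RefSeq lists 8 pseudogenes of it. The mitoferrins Slc25a28 and Slc25a37, which carry iron into the matrix, had 0.36 ± 0.22 and 0.08 ± 0.19 at 12 h. The coenzyme A carrier Slc25a42 had -0.25 ± 0.24 at 12 h and 0.20 ± 0.24 at 24 h. The remaining cofactor carriers, Slc25a16, Slc25a17 (peroxisomal), Slc25a32 (folate and FAD) and Slc25a51 (NAD), lay between -0.23 and 0.21 at both times.

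Of 4 members in the outer membrane or with no substrate given here, Slc25a34 measured 8.67, 8.04, 8.71, 9.01 and 8.96 log2 at 12 h, 9.35, 9.92, 9.11, 9.24 and 8.98 at 24 h, and 8.87, 8.79, 9.15, 9.37 and 9.12 in sham hearts. The 12 h arrays tended low and the 24 h arrays high, with overlap between all groups. The difference of 24 h from 12 h was 0.64 ± 0.19 log2 (adjusted p = 0.138), and those against sham were -0.38 at 12 h and 0.26 at 24 h. Slc25a35 had -0.79 ± 0.26 at 24 h (adjusted p = 0.112), with every 24 h array below every sham array. With the atrial marker mean as a covariate it was called (-1.09, adjusted p = 0.0355). Without the 4 atrial-rich arrays it was not (-0.94, adjusted p = 0.109). Slc25a46, which acts on mitochondrial shape at the outer membrane, had -0.06 and -0.07, and Slc25a53 had 0.02 and 0.04.

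The last question was whether carriers differed between hearts of 24 h and 12 h. By limma 0 of 38 were called, where 0.69% of all probe sets were, 0.121% higher and 0.569% lower, and 10 had an unadjusted p under 0.05 (26.3%, against 13.2% of all probe sets). The arrays of the 2 times did not overlap for 2 carriers, Slc25a20 and the liver-rich Slc25a47, both higher at 24 h (5.26%, against 2.57% of all probe sets in either direction, 0.983% higher and 1.59% lower). Slc25a47 averaged 4.61 ± 0.12 log2 at 24 h and 4.29 ± 0.14 at 12 h (SD, n = 5 each), low levels for which limma gave adjusted p = 0.195. Slc25a5, Slc25a25 and Slc25a45 differed between the times by 0.05 ± 0.13, 0.01 ± 0.28 and 0.04 ± 0.19 log2. Against sham at 24 h, 6 carriers had no overlap of arrays (15.8%, against 5.99% of all probe sets, 2.62% higher and 3.37% lower), namely Slc25a5, Slc25a25, Slc25a10, Slc25a35 and Slc25a38 below and Slc25a20 above.

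**Figure D4:**
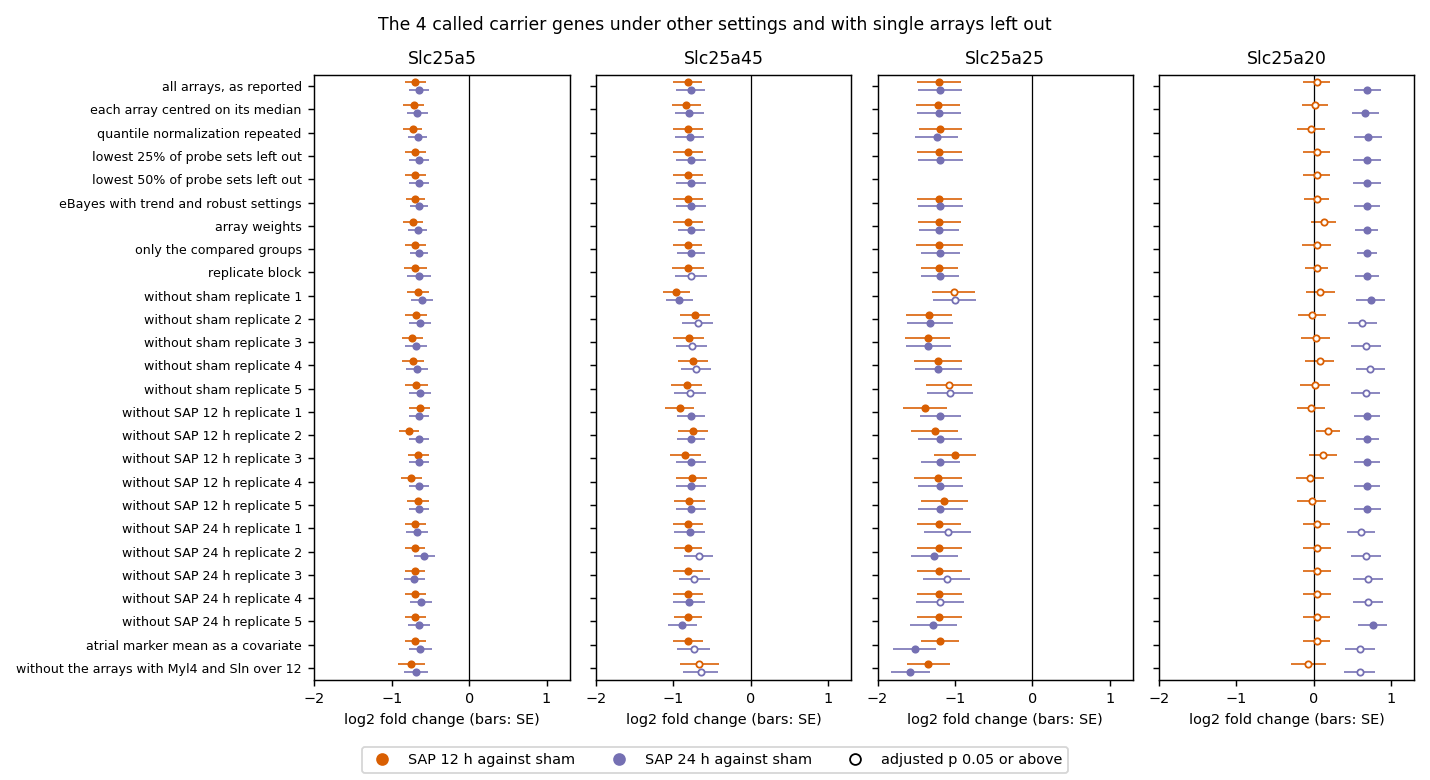
Log2 fold change against sham of the 4 called carriers at 12 h (orange) and 24 h (violet) with all arrays and under other settings, with limma's standard error as bars and filled points for adjusted p under 0.05. All points of Slc25a5 are filled, while those of Slc25a45, Slc25a25 and Slc25a20 at 24 h are open for several left-out arrays. Slc25a25 is missing where the lower part of the table was left out.

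Transporters that work beside the family were compared as lists. Both subunits of the mitochondrial pyruvate carrier, a separate protein family, were lower. Mpc1 averaged 15.62 ± 0.27 log2 at 12 h, 15.7 ± 0.14 at 24 h and 16.48 ± 0.17 in sham hearts (SD, n = 5 each), with log2 fold changes of -0.86 ± 0.13 SE (adjusted p = 8.00e-04) and -0.78 ± 0.13 (adjusted p = 0.00317). Mpc2 fell by 0.77 log2 at 12 h (-0.77 ± 0.16, adjusted p = 0.00659) and had -0.58 ± 0.16 at 24 h (adjusted p = 0.0515). Of the 5 family members with other symbols none was called against sham by limma (2 with an unadjusted p under 0.05 at 12 h, 0 at 24 h). Ucp2, an uncoupling protein homologue of many tissues and of immune cells, averaged 14.19 ± 0.24 log2 at 24 h and 15.35 ± 0.43 at 12 h, against 14.63 ± 0.62 in sham hearts. Its difference of 24 h from 12 h was called (-1.17 ± 0.25 SE, adjusted p = 0.0347). In the same comparison 3 of 8 macrophage markers were called lower (Cd68, C1qb and C1qc), all 8 had negative values, and their median log2 fold change was -0.77. The part of these markers in the Ucp2 difference was not tested. Ucp3, the muscle homologue, averaged 6.6 ± 0.49 at 24 h and 7.88 ± 1.21 at 12 h, against 6.77 ± 0.36 in sham hearts, and was not called. Ucp1, which defines brown fat, lay near the bottom of the table with group means of 3.43, 3.5 and 3.41 log2 at 12 h, 24 h and in sham hearts.

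Lists of proteins that serve many carriers showed few calls. Of the 3 outer membrane channel genes, Vdac1 to Vdac3, 0 were called against sham by limma, with 1 at an unadjusted p under 0.05 at each time and median log2 fold changes of -0.05 at 12 h and -0.13 at 24 h. Of 4 malate-aspartate shuttle enzymes 0 were called, with 1 at an unadjusted p under 0.05 at each time. The largest differences were -0.34 ± 0.10 log2 at 12 h for Mdh2, the matrix malate dehydrogenase (adjusted p = 0.0685), and -0.34 ± 0.13 at 24 h for Mdh1, its cytosolic partner (adjusted p = 0.179). Of 7 genes of the import route that inserts carriers into the inner membrane 0 were called, with 2 at an unadjusted p under 0.05 at 12 h and 0 at 24 h. Of 3 creatine kinases 0 were called, with 0 at an unadjusted p under 0.05 at either time.

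**Figure D5:**
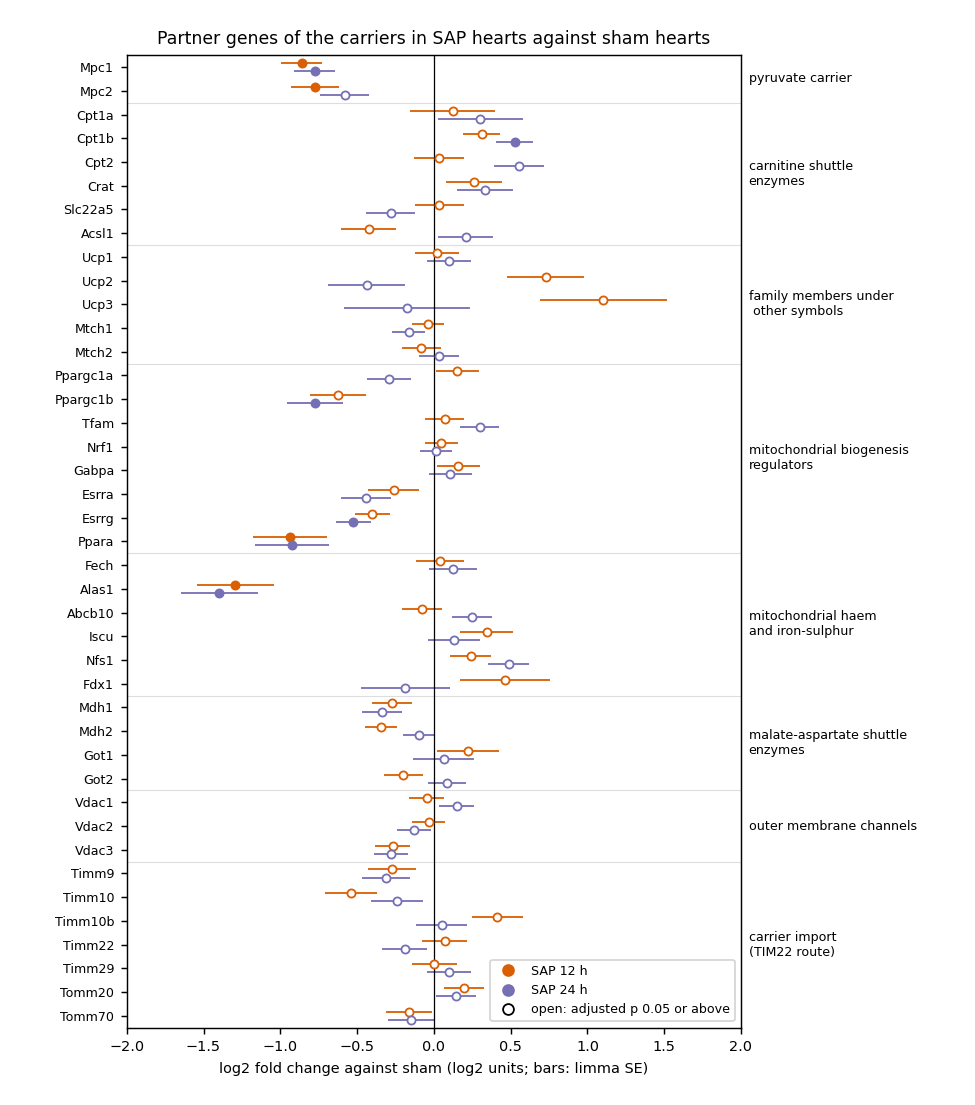
Log2 fold change of partner genes in SAP 12 h hearts (orange) and SAP 24 h hearts (violet) against sham hearts, grouped by list, with limma's standard error as bars and filled points for adjusted p under 0.05. Mpc1, Alas1 and Ppara have filled points left of 0 at both times, and Cpt1b is the only gene shown with a filled point right of 0.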

How the data were processed

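Rat heart RNA of 15 samples, 5 per group, was hybridised to Affymetrix arrays. The authors deposited log2 expression values per transcript cluster with 2 decimals, and the submitters' processing notes name Affymetrix Expression Console. The name of the deposited table points to RMA, which corrects background, normalizes by quantiles and summarises probes, and the log2 scale is taken from it. The values of another deposited table were identical (largest difference 0). Some series fields speak of mice and a mouse array, while the probe set IDs are those of a rat array. Gene symbols came from GEO's platform annotation: 15049 of 23188 probe sets had 1 symbol, 0 several, 8139 are unnamed here, and gene IDs changed 0 symbols. No detection or saturation calls come with the values, and no batch is labelled. Precision is limited by how many arrays there are. Over the 38 carriers limma's standard error had a median of 0.158 log2. The labels do not say that a replicate is a separate animal, so p-values measure the spread between these arrays.

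The 3 groups were fitted together in limma 3.58.1 (lmFit, eBayes) under R 4.3.3, without a filter or a fold threshold, and p-values were adjusted over all 23188 probe sets. Members described in full were those called in any comparison, filled up to 8 by the smallest unadjusted p; genes outside this rule, such as Slc25a33, Slc25a38 and Slc25a47, were chosen after their values were seen. The family, lists and tests were chosen with earlier results of these data known. On simulated data with the real spreads, in which 200 probe sets were changed, the fit recovered 26% of changes of 0.5 log2 and 78% of changes of 1 log2 at 12 h against sham, and 28% and 92% at 24 h. Alternatives were median centring, repeated quantile normalization, filters that dropped the lowest 25% or 50% of probe sets, other eBayes settings, array weights, a fit of the compared groups alone, a replicate block, each array left out, a stricter adjusted p (under 0.01), an added fold threshold of 1.5, 1 probe set per gene, and both atrial settings (6 markers as a covariate, or without the 4 arrays).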

Additional observations from a re-analysis of the deposited data

Results flagged for a closer look

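Each of the 38 carriers was looked at in its 3 groups of 5 arrays for an array far from the others (Dixon's ratio of the gap to the range above 0.71). Of 114 such groups 9 held one, and chance gives about 1 in 20. At SAP 12 h replicate 2 was the highest for Slc25a29 (5.96 log2, the next 5.13), Slc25a14 (8.09, the next 6.98) and Slc25a16 (8.97, the next 8.75), and replicate 3 was the highest for Slc25a17 (8.25, the next 7.79). At SAP 24 h replicate 1 was the lowest for Slc25a24 (6.39, the next 7.1) and replicate 2 the lowest for Slc25a4 (19.46, the next 19.66). In sham hearts replicate 5 was the lowest for Slc25a18 (4.25, the next 4.57), replicate 4 for Slc25a1 (3.78, the next 4.43) and replicate 3 for Slc25a4 (19.25, the next 19.66). None of these 8 genes was called in any comparison. No carrier was called between 24 h and 12 h, and none had all arrays of one time above and all of the other below the sham mean.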

How the results depend on the processing

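Of the calls against sham, Slc25a5 at 12 h kept its call in all 28 alternatives, and at 24 h it lost it only at an adjusted p under 0.01. At 12 h 5 carriers were called in place of 3 with the lowest 50% of probe sets left out and with array weights, 1 at an adjusted p under 0.01, and 2 to 5 without 1 array. At 24 h 7 were called in place of 4 with only the compared groups, 0 at an adjusted p under 0.01, and 1 to 6 without 1 array. The count was 2 without sham replicate 2, 3 or 4 or SAP 24 h replicate 1, 2, 3 or 4, and 1 without sham replicate 5. Without SAP 12 h replicate 2, 6 were called at 24 h. Between 24 h and 12 h 0 to 1 was called without 1 array (Slc25a33, without SAP 12 h replicate 2). Deviations of same-numbered arrays had correlations of -0.168 to 0.258. With 5 arrays per group these values cannot settle whether the numbers pair the samples. With the number as a replicate block 4 carriers were called at 12 h, 3 at 24 h (Slc25a45 lost) and 1 between the times (Slc25a24). Of all 23188 probe sets 1030, 657 and 162 were called with this block, against 1140, 782 and 160 without it. For the other settings here the count over all probe sets is not given, so those carrier counts were not set against it. Slc25a25 could not be tested with the lowest 50% left out. Differences near 0 changed sign. Slc25a20 at 12 h (0.04) was -0.036 with repeated quantile normalization, -0.07 without the 4 atrial-rich arrays and -0.053 to 0.182 without 1 array. Between 24 h and 12 h Slc25a25 (0.01) was -0.049 with repeated quantile normalization, -0.009 with array weights, -0.33 with the atrial covariate, -0.23 without the 4 atrial-rich arrays and -0.19 to 0.20 without 1 array. Without 1 array Slc25a10 ranged from -0.009 to 0.159, Slc25a5 from -0.011 to 0.129 and Slc25a45 from -0.07 to 0.14 in that comparison. The cause was not tested. Of 753 alternative values for 27 results 669 kept direction and side of the threshold, or for counts stayed within 1.5 times.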

Other observations

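Some genes that act around the carriers, taken from lists by function, also differed. Alas1, the first enzyme of haem synthesis, which uses the glycine that Slc25a38 brings in, averaged 12.56 ± 0.58 log2 at 12 h, 12.46 ± 0.39 at 24 h and 13.85 ± 0.36 in sham hearts (SD, n = 5 each). It fell by 1.29 and 1.40 log2 (fold changes -1.29 ± 0.25 SE, adjusted p = 0.00443, and -1.40 ± 0.25, adjusted p = 0.00421, limma), the only call among 6 measured genes of haem and iron-sulphur synthesis at each time. Mcu, the pore of the calcium uniporter, fell by 0.38 log2 at 12 h (-0.38 ± 0.10, adjusted p = 0.0392) and had -0.31 ± 0.10 at 24 h (adjusted p = 0.117). It was 1 of 2 measured genes of calcium uptake. The other, Micu2, which gates the pore, was not called, with -0.11 ± 0.13 at 12 h, 0.44 ± 0.13 at 24 h (adjusted p = 0.0664, every 24 h array above every sham array) and 0.56 ± 0.13 between 24 h and 12 h (adjusted p = 0.0540).

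Of 8 regulators of mitochondrial genes 1 was called lower at 12 h and 3 at 24 h, and 0 were called higher. Ppara, the fatty acid receptor that switches on oxidation genes, had -0.94 ± 0.24 log2 at 12 h (adjusted p = 0.0277) and -0.92 ± 0.24 at 24 h (adjusted p = 0.0407). The coactivator gene Ppargc1b and the nuclear receptor gene Esrrg were called lower at 24 h (-0.77 ± 0.18, adjusted p = 0.0251, and -0.53 ± 0.11, adjusted p = 0.0150). At 12 h they just missed the threshold (-0.62 ± 0.18, adjusted p = 0.0584, and -0.40 ± 0.11, adjusted p = 0.0505). Between 24 h and 12 h they differed by -0.15 and -0.13 and were not called. Ppargc1a had 0.15 ± 0.14 at 12 h and -0.29 ± 0.14 at 24 h and was not called.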
